A study of Mus musculus with 6 samples.

Results

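The Tmem176 pair and 6 genes of the macrophage MS4A cluster encode small membrane proteins that cross the membrane 4 times, and their transcripts were followed in mouse bone marrow-derived macrophages treated with thiothixene or with DMSO. The 8 genes are Tmem176a, Tmem176b, Ms4a4a, Ms4a4c, Ms4a6b, Ms4a6c, Ms4a6d and Ms4a7. They were taken by symbol from 56691 gene rows, and all 8 were among the 14856 genes expressed highly enough to be tested. They were chosen by their log2 fold changes between thiothixene and DMSO in these same libraries, with results of the contrast known, so their differences between treatments are given as values without a test. Bone marrow-derived macrophages are primary phagocytes grown in culture from marrow precursors. The thiothixene group held 1 library from each of 3 mice (a, b and c), treated with 2 µM of the drug on day 6 of culture for 24 h. The DMSO group held 1 library from each of the same 3 mice, given the solvent for the same 24 h. As a drug, thiothixene is a dopamine receptor blocker used against psychosis. The labels give no strain, sex or age of the mice and no genetic change in either group.

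TMEM176A and TMEM176B are found on intracellular membranes of myeloid cells, where they have been described as cation channels that act in antigen handling and limit inflammasome activity. The MS4A family takes its name from 4 membrane-spanning domains. Its founding members are the B cell surface protein CD20, encoded by Ms4a1, and the beta chain of the high-affinity IgE receptor, encoded by Ms4a2. Several later members are expressed in myeloid cells, where MS4A proteins associate with other receptors, such as Dectin-1 for MS4A4A and VSIG4 for MS4A6D. In tissues, MS4A7 and MS4A4A are used as markers of differentiated macrophages.

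Counts assigned to genes were 18548095 to 20264090 in the thiothixene libraries and 10472349 to 22297520 in the DMSO libraries, with the DMSO library of mouse b the shallowest. Between mice b and c, the log2 levels of all tested genes correlated at 0.981 under thiothixene but at 0.825 under DMSO. Mouse a correlated with mice b and c at 0.956 and 0.949 under thiothixene and at 0.914 and 0.916 under DMSO. Thiothixene a, DMSO b and DMSO c, named by treatment and mouse, stood apart from the other 3 libraries. In edgeR's quasi-likelihood test with Benjamini-Hochberg adjustment, 0 of 14856 genes (0.0%) passed an adjusted p of 0.05 and 256 had an unadjusted p under 0.05, while DESeq2 called 2 genes, of which 0 were among these 8. The median log2 fold change of all tested genes was -0.04. Of 8 macrophage markers 7 were tested, all 7 with log2 fold changes below 0 and a median of -0.40. With thiothixene 4 of them were lower in all 3 mice. Of all tested genes, 54.7% had a log2 fold change below 0 and 6.82% were lower in all 3 mice. Of the 7 markers, 0 passed edgeR's adjusted test. The list summed to 8744 to 10250 CPM with thiothixene and 8801 to 16960 CPM with DMSO. CPM are read counts scaled to a common total, with each library's counts assigned to genes adjusted by its TMM factor. The part of this list in the levels of the 8 genes was not tested. The untested marker, the integrin gene Itgam, is listed at 1 read in thiothixene c and at 0 in the other 5 libraries. The cause of this low count was not tested. Since the counter and its gene annotation are not given, it is not read as absence of the transcript. The 3 most abundant were Lyz2, Csf1r and Cd68. Lyz2 had 5008 to 6556 CPM with thiothixene and 5031 to 11650 CPM with DMSO. Csf1r had 1135 to 1200 CPM with thiothixene and 1202 to 1899 CPM with DMSO, and Cd68 had 1026 to 1411 CPM with thiothixene and 691.3 to 2173 CPM with DMSO.

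Among the 8 genes, Tmem176b had the lowest log2 fold change. Its level was 12.4, 14.0 and 14.0 CPM in thiothixene-treated cells of mice a, b and c, against 34.7, 52.9 and 24.5 CPM in their DMSO libraries. Every thiothixene library lay below every DMSO library. The thiothixene libraries were close together, whereas the DMSO libraries differed up to 2.16-fold. It averaged 13.5 ± 0.889 CPM with thiothixene, against 37.4 ± 14.4 CPM with DMSO (SD, n = 3 each), a log2 fold change of -1.47 (SE 0.356) or a 2.77-fold lower level. Within mice a, b and c the log2 difference, thiothixene minus DMSO, was -1.47, -1.92 and -0.80. Of all tested genes, 0.841% had a lower log2 fold change. The levels rest on 262, 260 and 284 reads with thiothixene and 776, 474 and 575 reads with DMSO. Since these are bulk cultures, fewer cells of a type and less RNA per cell cannot be told apart for this or any gene below.

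Tmem176a, which encodes the partner channel, was lower in 2 of the 3 mice. It measured 5.18, 5.74 and 7.79 CPM with thiothixene, against 15.2, 19.6 and 6.57 CPM with DMSO in mice a, b and c. The groups overlapped because the DMSO library of mouse c was low, and in that mouse the log2 difference was 0.24. The group means were 6.24 ± 1.38 CPM with thiothixene, against 13.8 ± 6.60 CPM under DMSO (SD, n = 3 each), with a log2 fold change of -1.14 (SE 0.466). The gene was measured from 107 to 158 reads with thiothixene and from 154 to 340 reads with DMSO. Tmem176b had 2.40, 2.43 and 1.80 times the CPM of Tmem176a in mice a, b and c with thiothixene, and 2.28, 2.71 and 3.73 times with DMSO.

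**Figure D1:**
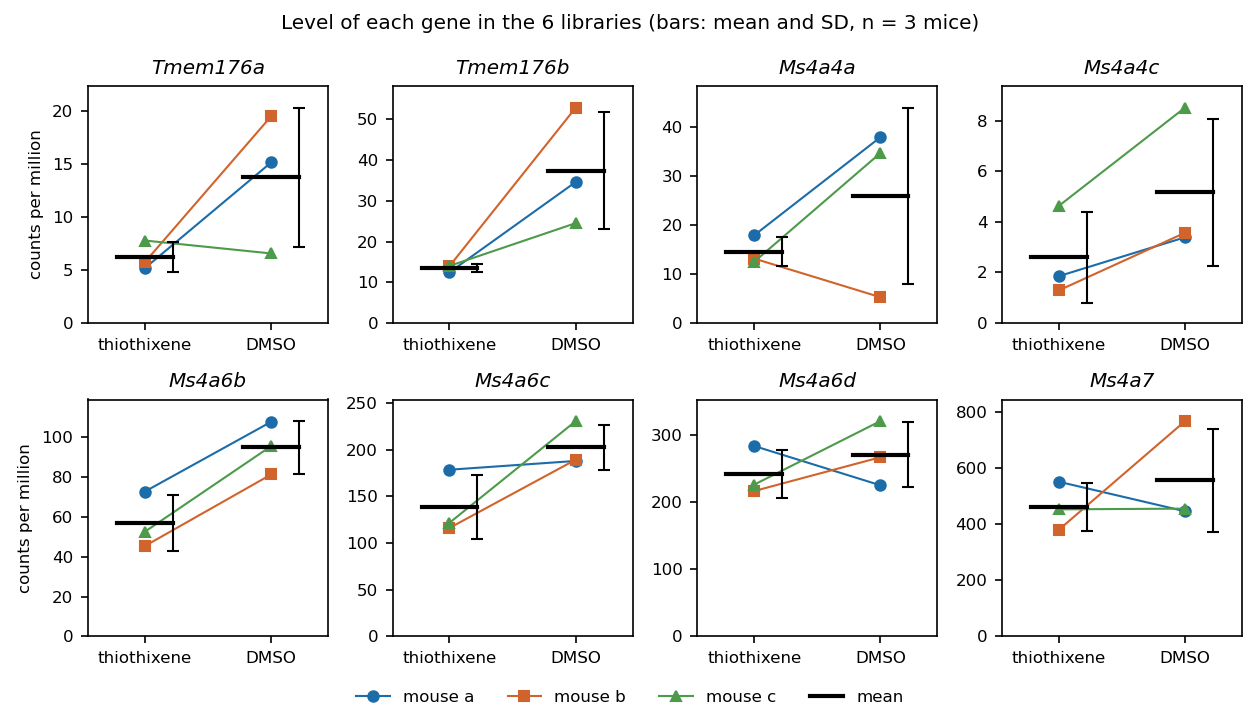
Level of each gene in CPM (vertical axes, from 0) in the thiothixene and DMSO libraries, with a line joining the libraries of each mouse and black bars for the mean and SD of 3 mice. Tmem176b, Ms4a6b and Ms4a6c are the genes for which the thiothixene libraries all lie below the DMSO libraries, and the DMSO library of mouse b is the lowest of all for Ms4a4a and the highest for Tmem176a, Tmem176b and Ms4a7.

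The Tmem176 genes lie head to head within 13.3 kb of chromosome 6 (GRCm38 annotation). Tmem176b (ENSMUSG00000029810) runs on the minus strand at chr6:48833818-48841496, and Tmem176a (ENSMUSG00000023367) on the plus strand at chr6:48840919-48847071. Their annotated exons share 81 bases on opposite strands, which is 2.1% of Tmem176a and 3.4% of Tmem176b. RefSeq (GRCm38.p6) gives 2 start sites to Tmem176a and 3 to Tmem176b. The windows of the nearest pair of facing starts, at chr6:48841233-48841532 (plus strand) and chr6:48841325-48841624 (minus strand), share 208 bases, and the start sites are 109 bases apart. They are shown because the genes face away from this shared stretch and had the most similar pattern over the libraries of any pair among the 8 apart from Ms4a6b and Ms4a6c. Each window holds 250 bases before the start and 50 after it, 5′ to 3′ on the gene's own strand. Capitals mark GGAAGT, the letters bound by ETS factors such as PU.1, on either strand.
Tmem176a: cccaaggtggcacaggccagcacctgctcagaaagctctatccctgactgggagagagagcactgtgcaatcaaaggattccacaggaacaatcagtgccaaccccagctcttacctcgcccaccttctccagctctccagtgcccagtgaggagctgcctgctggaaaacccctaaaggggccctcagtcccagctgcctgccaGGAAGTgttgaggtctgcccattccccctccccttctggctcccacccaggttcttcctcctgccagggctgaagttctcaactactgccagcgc
Tmem176b: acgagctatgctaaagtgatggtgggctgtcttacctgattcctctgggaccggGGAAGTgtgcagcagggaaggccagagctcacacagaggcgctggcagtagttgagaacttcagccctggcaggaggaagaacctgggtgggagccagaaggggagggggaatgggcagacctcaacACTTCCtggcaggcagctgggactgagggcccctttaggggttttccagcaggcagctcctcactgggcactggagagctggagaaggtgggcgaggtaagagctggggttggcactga
The match at -45 to -40 in the Tmem176a window and the one at -69 to -64 in the Tmem176b window are the same 6 bases read from opposite strands, starting at position 48841438 of chromosome 6. The Tmem176b window holds another match at -196 to -191. Of 32851 promoter windows in the RefSeq table, 23.8% hold GGAAGT on either strand.

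Of the MS4A genes, Ms4a4a encodes a receptor partner that in macrophages associates with the fungal receptor Dectin-1. It measured 17.9, 13.2 and 12.5 CPM with thiothixene in mice a, b and c, against 38.0, 5.25 and 34.7 CPM with DMSO. Thiothixene was lower in mice a and c and higher in mouse b, whose DMSO library, with 47 reads, had the lowest level of all 6. The DMSO libraries spanned 7.23-fold, more than those of any other of the 8 genes. On average there were 14.5 ± 2.96 CPM with thiothixene, against 26.0 ± 18.0 CPM under DMSO (SD, n = 3 each), and the log2 fold change of -0.85 (SE 0.629) became -0.48 with the mouse as a block, -1.33 without the DMSO library of mouse b and -1.56 without the 3 libraries that stood apart.

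Ms4a4c, its neighbour on chromosome 19, was the least abundant of the 8. It measured 1.85, 1.29 and 4.64 CPM with thiothixene and 3.39, 3.57 and 8.53 CPM with DMSO, from 24 to 94 reads and from 32 to 200 reads. Thiothixene was lower in all 3 mice, with log2 differences of -0.84, -1.40 and -0.87, yet the groups overlapped because both libraries of mouse c were high. The group means were 2.59 ± 1.79 CPM with thiothixene, against 5.17 ± 2.92 CPM under DMSO (SD, n = 3 each), with a log2 fold change of -0.999 (SE 0.642). That value was -0.42 without the DMSO library of mouse c and -0.18 without the 3 libraries that stood apart.

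The Ms4a6 genes are close paralogs. Ms4a6b, whose product has been linked to GITR signalling in mouse T cells, measured 72.6, 45.3 and 52.5 CPM with thiothixene, against 107.6, 81.2 and 95.4 CPM with DMSO in mice a, b and c. In CPM the highest thiothixene library lay below the lowest DMSO library. On average there were 56.8 ± 14.2 CPM with thiothixene, against 94.8 ± 13.2 CPM under DMSO (SD, n = 3 each), 1.67-fold lower with thiothixene, and the log2 fold change was -0.74 (SE 0.296). It was -1.13 without the 3 libraries that stood apart, a shift larger than the SD between replicates. Within mice the log2 difference was -0.57, -0.84 and -0.86, the narrowest range over mice among the 8 genes.

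Ms4a6c measured 178.4, 116.1 and 121.6 CPM with thiothixene, against 187.8, 189.2 and 230.5 CPM with DMSO. In CPM the groups did not overlap, but in mouse a the log2 difference was -0.07, against -0.70 in mouse b and -0.92 in mouse c. The group means were 138.7 ± 34.5 CPM with thiothixene, against 202.5 ± 24.3 CPM under DMSO (SD, n = 3 each), with a log2 fold change of -0.55 (SE 0.291). Ms4a6c is uncertain as a gene-level measurement. The transcript BE692007 lies on the opposite strand and shares 1088 of the 2050 exon bases of Ms4a6c (53.1%), and the strand setting of the counting is not given in the sources used here.

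The counts of the overlapping genes were nearly equal in every library. BE692007 had 3940, 2100 and 2636 reads with thiothixene, against 3757, 2163 and 2466 reads of Ms4a6c. With DMSO it had 4421, 1665 and 5536 reads, against 4204, 1694 and 5402 reads of Ms4a6c. The ratio of BE692007 to Ms4a6c lay between 0.971 and 1.07 over the 6 libraries. Reads of Ms4a6c and of BE692007 cannot be told apart with these files.

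**Figure D2:**
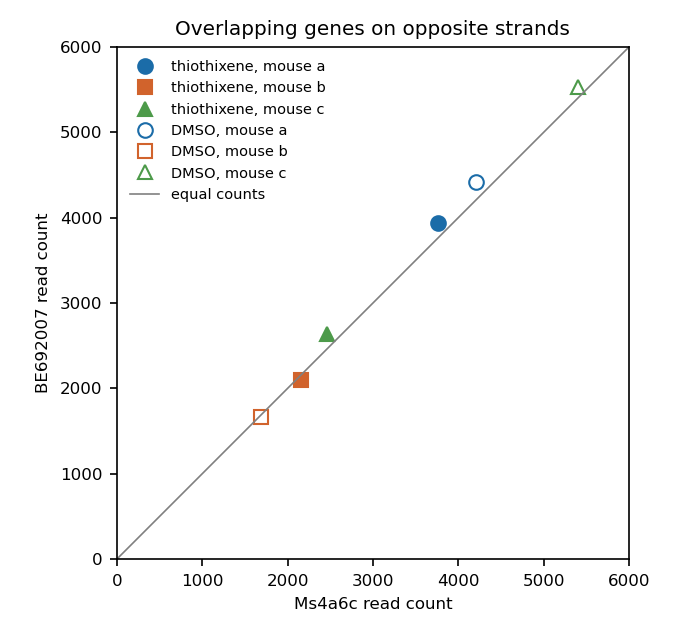
Read counts of BE692007 (vertical axis) and of Ms4a6c (horizontal axis) in the 6 libraries, with filled symbols for thiothixene, open symbols for DMSO and a line of equal counts. All 6 libraries lie near the line, with ratios between 0.971 and 1.07.

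Ms4a6d, whose product pairs with the inhibitory receptor VSIG4 in mouse macrophages, measured 283.2, 216.2 and 225.7 CPM with thiothixene and 224.7, 266.5 and 320.3 CPM with DMSO. Thiothixene was lower in mice b and c and higher in mouse a, and the groups overlapped. On average there were 241.7 ± 36.3 CPM with thiothixene, against 270.5 ± 47.9 CPM under DMSO (SD, n = 3 each). The log2 fold change of -0.16 (SE 0.280) became 0.03 without mouse c.

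Ms4a7 measured 551.8, 380.4 and 453.3 CPM with thiothixene and 446.3, 768.4 and 455.9 CPM with DMSO. Its high DMSO mean came from mouse b, since thiothixene was the higher in mouse a and the libraries of mouse c differed by 0.008 on the log2 scale. The group means were 461.8 ± 86.0 CPM with thiothixene, against 556.9 ± 183.3 CPM under DMSO (SD, n = 3 each), with a log2 fold change of -0.27 (SE 0.322). Without the DMSO library of mouse b it was 0.03, and without both libraries of that mouse 0.15.

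The promoters of Ms4a6b and Ms4a6c are shown because they resemble each other. Both genes were also lower with thiothixene in all 3 mice, without overlap in CPM. The windows lie on the plus strand of chromosome 19 (RefSeq, GRCm38.p6), at chr19:11518309-11518608 for Ms4a6b and chr19:11469118-11469417 for Ms4a6c. Capitals mark GGAAGT, and GAAANNGAA, the letters of an interferon response element, on either strand, and the 2 motifs do not overlap here.
Ms4a6b: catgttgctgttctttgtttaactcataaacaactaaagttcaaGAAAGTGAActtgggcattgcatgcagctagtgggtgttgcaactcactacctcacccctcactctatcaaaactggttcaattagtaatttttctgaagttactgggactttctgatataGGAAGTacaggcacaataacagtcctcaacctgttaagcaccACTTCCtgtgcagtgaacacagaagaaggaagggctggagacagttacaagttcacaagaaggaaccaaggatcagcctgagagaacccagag
Ms4a6c: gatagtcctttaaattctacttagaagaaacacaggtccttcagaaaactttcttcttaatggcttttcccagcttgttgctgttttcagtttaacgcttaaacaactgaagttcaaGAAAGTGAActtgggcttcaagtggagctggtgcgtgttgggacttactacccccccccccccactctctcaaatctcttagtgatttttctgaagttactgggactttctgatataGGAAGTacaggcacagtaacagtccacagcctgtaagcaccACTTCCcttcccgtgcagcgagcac
Aligned over 225 bases, the 2 windows were identical at 192 bases (85.3%). Both hold GAAAGTGAA, at -206 to -198 in Ms4a6b and at -133 to -125 in Ms4a6c, and both hold GGAAGT once in each orientation. The other pairs of MS4A promoters were at most 61.8% identical. Of all RefSeq promoter windows, 8.56% hold GAAANNGAA.

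Of the 8 genes, 7 have an entry in the promoter table, with 11 windows in all, and Ms4a6d has none. GGAAGT was found in 6 of the 7 genes and GAAANNGAA in 3 (Ms4a6b, Ms4a6c and Ms4a7). CATGTG, the MITF/TFE type of E-box, was found in Ms4a4a and Ms4a7, and 14.2% of all windows hold it. TGANTCA, bound by AP-1, was found in Ms4a7 alone, against 7.81% of all windows. AGGTCA, the core of nuclear receptor sites, and TATAAA, the TATA box, were found in 0 of the 7, against 16.3% and 13.6% of all windows. Both strands were searched, and the genes with 2 or 3 windows had more bases to match in.

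The coding sequences of Ms4a6b and Ms4a6c were 85.3% identical over 645 aligned bases, those of Ms4a6b and Ms4a6d 81.3% and those of Ms4a6c and Ms4a6d 79.1%. Ms4a4a and Ms4a4c were 68.3% identical and Tmem176a and Tmem176b 59.0%. Pairs of a Tmem176 gene with an MS4A gene scored 57.3% to 63.6% in the same alignments, a range that includes the Tmem176 pair. At the scale of a read, few stretches were shared between paralogs. Of all 100-base stretches of the longest coding transcript, 51.3% of those of Ms4a6c occur in another gene, nearly all in BE692007 on the opposite strand, since 0.6% occur on the same strand. The share was 1.7% for Ms4a4c, shared with Ms4a4b, and 0.0% for the other 6 genes.

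Per kilobase of the longest coding transcript, Ms4a7 had the highest level, with 241.4 to 350.1 CPM per kb in thiothixene libraries and 283.2 to 487.6 in DMSO libraries. Ms4a6d came next with 152.5 to 199.7 CPM per kb with thiothixene and 158.5 to 225.8 with DMSO. Ms4a6c followed with 63.1 to 96.9 CPM per kb with thiothixene and 102.0 to 125.2 with DMSO. These 3 levels did not overlap within either group. Ms4a6b had 16.9 to 27.1 CPM per kb with thiothixene and 30.3 to 40.2 with DMSO, and Ms4a4a 14.9 to 21.4 with thiothixene and 6.28 to 45.4 with DMSO, so these neighbours in the order overlapped. Tmem176b had 7.55 to 8.50 CPM per kb with thiothixene and 14.9 to 32.1 with DMSO, below Ms4a4a with thiothixene and overlapping it with DMSO. Tmem176a had 3.36 to 5.06 CPM per kb with thiothixene and 4.27 to 12.7 with DMSO. Ms4a4c was the lowest at 0.748 to 2.69 CPM per kb with thiothixene and 1.97 to 4.95 with DMSO, overlapping Tmem176a with DMSO. With the length of all annotated exons in place of that transcript, Ms4a6d came before Ms4a7 and Ms4a4a before Ms4a6b.

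All 8 genes had a log2 fold change below 0, with a median of -0.79, while 54.7% of all tested genes lay below 0. In CPM, thiothixene libraries all lay below DMSO libraries for 3 of the 8, Tmem176b, Ms4a6b and Ms4a6c, and for 2.77% of all tested genes. Thiothixene was lower in each of the 3 mice for 4 of the 8, the same 3 and Ms4a4c, and for 6.82% of all tested genes. Since the choice of the genes drew on this contrast, these counts describe the genes chosen. In TPM (reads per kilobase of exons, scaled to a common total without TMM) the groups overlapped for Ms4a6b and Ms4a6c. Ms4a6b had 57.1 TPM in thiothixene a and 39.0 in DMSO b, and Ms4a6c had 307.1 and 198.9. Tmem176b stayed apart, at 18.4 to 18.6 TPM with thiothixene and 37.4 to 49.6 with DMSO. In edgeR's test 0 of the 8 passed an adjusted p of 0.05.

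**Figure D3:**
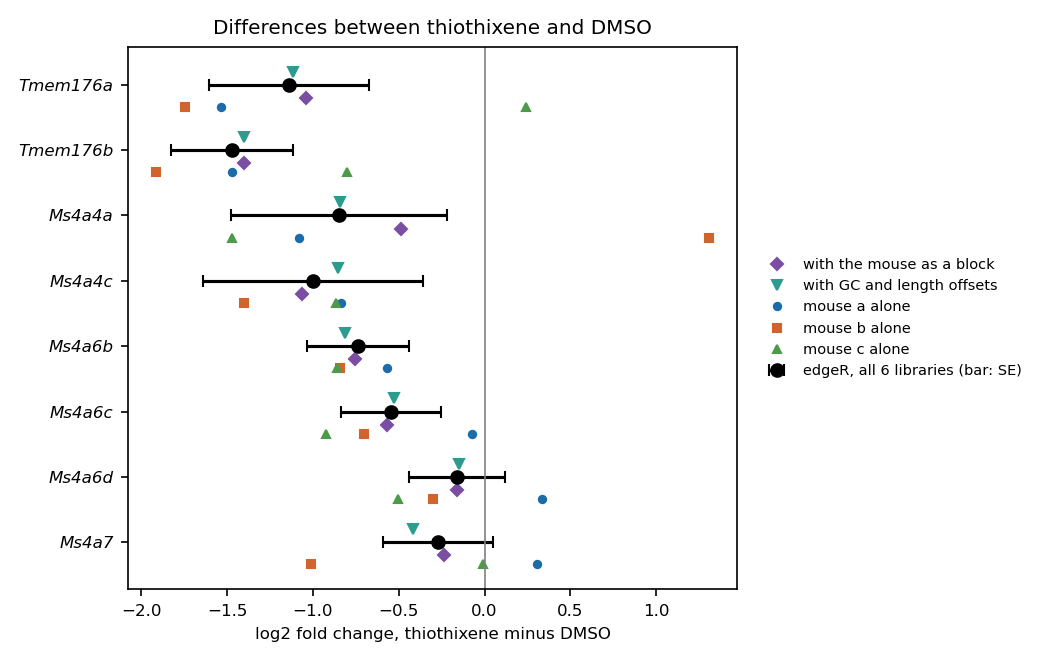
Log2 fold change, thiothixene minus DMSO (horizontal axis), for each gene, with the edgeR value and its SE in black, the values with the mouse as a block and with GC and length offsets beside it, and the difference within each mouse below it. The black points run from -1.47 for Tmem176b to -0.16 for Ms4a6d, and the largest distance between mice is that of Ms4a4a.

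The libraries that stood apart differed by the base composition of their genes. The exons of the 6 MS4A genes have 38.1% to 44.1% GC, and those of the Tmem176 pair 50.7% to 53.4%. The 2814 tested genes in the MS4A range had a median log2 deviation from their own mean of 0.30, -0.08 and -0.10 in mice a, b and c with thiothixene, and of 0.01, -0.52 and 0.49 with DMSO. The 1998 genes in the range of the Tmem176 pair deviated by -0.09, 0.09 and 0.11 with thiothixene and by 0.06, 0.24 and -0.23 with DMSO. In DMSO b, Ms4a4a (-1.64 from its own mean) and the Tmem176 pair (1.15 and 1.27) lay on the same side as genes of like GC. Ms4a7 (0.63), Ms4a6c (0.19), Ms4a6b (0.17), Ms4a4c (0.13) and Ms4a6d (0.07) lay on the other side there. The part of GC content in these levels was not tested beyond the following fit. With offsets fitted to GC and length in each library the log2 fold change was -1.40 for Tmem176b, -1.11 for Tmem176a, -0.84 for Ms4a4a, -0.81 for Ms4a6b and -0.42 for Ms4a7.

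Neighbouring genes varied together to different degrees over the 6 libraries, which share mice and treatments. Tmem176a and Tmem176b correlated at r = 0.914, and at 0.908 once each group's mean was taken out. Ms4a6b and Ms4a6c correlated at 0.920, and at 0.768 with the group means removed. For Ms4a6c and Ms4a6d, r was 0.795, and 0.873 without the group means. Ms4a4a ran against Ms4a7, with r = -0.619 and Spearman's rho = -0.371, although the genes lie 39342 bases apart by their start sites. In DMSO b, Ms4a4a lay at -1.64 from its own mean, Ms4a7 at 0.63 and Tmem176b at 1.27. The part of this library in the coefficients of Ms4a4a was not tested. Over the 15 pairs of MS4A genes r ranged from -0.619 to 0.920 with a median of 0.442. The 12 pairs of a Tmem176 gene with an MS4A gene had a median r of 0.352, and with group means removed 10 of the 12 were below 0, the lowest being Tmem176b with Ms4a4a at -0.879. These coefficients describe 6 points and carry no test.

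**Figure D4:**
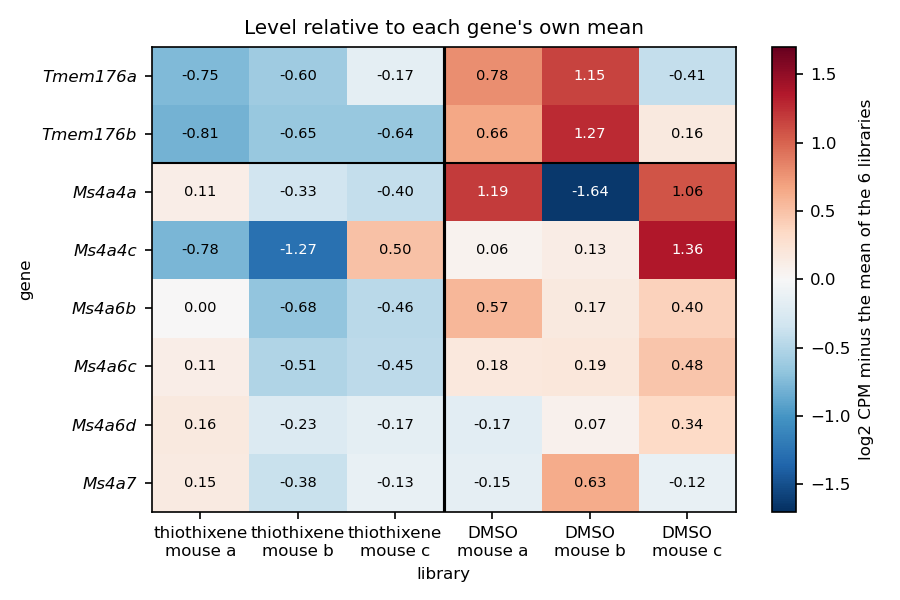
Log2 CPM of each gene minus its mean over the 6 libraries (colour and number), with genes as rows and libraries as columns, thiothixene left of the line and DMSO right of it. The Tmem176 genes share their pattern, and the DMSO library of mouse b is at 1.27 for Tmem176b and -1.64 for Ms4a4a.

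The ratio of Ms4a6c to Ms4a6b was 2.46, 2.56 and 2.32 with thiothixene and 1.74, 2.33 and 2.41 with DMSO in mice a, b and c. The ratio of Ms4a6c to Ms4a6d was 0.630, 0.537 and 0.539 with thiothixene and 0.836, 0.710 and 0.720 with DMSO, so that all 3 thiothixene libraries lay below the DMSO libraries. Both ratios use the Ms4a6c count, and whether reads of BE692007 enter it is not known.

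Among 9523 other tested genes with a mean of at least 10 CPM, the 5 with the highest r to Tmem176b over the 6 libraries were Ptger2 (0.984), which encodes a prostaglandin E2 receptor, A530064D06Rik (0.981), Lrmp (0.979), Cxcl16 (0.975), which encodes a membrane-bound chemokine, and Pilra (0.973), an inhibitory receptor. In all 5, every thiothixene library lay below every DMSO library, as for 2.77% of all tested genes, which follows from their likeness to Tmem176b. Pilra measured 22.4, 18.4 and 16.8 CPM with thiothixene, against 50.6, 71.5 and 34.7 CPM with DMSO in mice a, b and c. Cxcl16 measured 46.2, 51.5 and 57.9 CPM with thiothixene, against 90.4, 147.7 and 68.4 CPM with DMSO. Leaving out any 1 library kept these 5 coefficients between 0.945 and 0.995.

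For the mean standardised pattern of the 6 MS4A genes the 5 most alike were BE692007 (0.986), Gbp8 (0.982), Epsti1 (0.981), C87436 (0.981) and Casp4 (0.978). BE692007 is the transcript that overlaps Ms4a6c, 1 of the 6 genes in the pattern, with nearly equal counts. Its likeness is therefore not independent of the pattern. Gbp8 belongs to the guanylate-binding proteins, a family induced by interferon, and Casp4 encodes the inflammatory caspase also called caspase-11. Casp4 measured 26.6, 16.2 and 18.4 CPM with thiothixene, against 27.3, 28.9 and 33.3 CPM with DMSO. Gbp8 measured 10.1, 6.76 and 9.12 CPM with thiothixene, against 12.2, 11.5 and 15.9 CPM with DMSO. In both, the thiothixene libraries all lay below the DMSO libraries, as for 2.77% of all tested genes. Both were picked by likeness to genes whose choice drew on this contrast. The groups overlapped for the other 3, BE692007, Epsti1 and C87436, and Epsti1 and C87436 were lower with thiothixene in 2 of the 3 mice.

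The 6 MS4A genes span 283.8 kb of chromosome 19 in GRCm38. Ms4a7 (ENSMUSG00000024672) lies at chr19:11321039-11336146 on the minus strand, Ms4a4a (ENSMUSG00000101389) at chr19:11375523-11392790 and Ms4a4c (ENSMUSG00000024675) at chr19:11404770-11427246 on the plus strand. Ms4a6c (ENSMUSG00000079419) follows at chr19:11469366-11482192 and Ms4a6b (ENSMUSG00000024677) at chr19:11516512-11531256, both on the plus strand, and Ms4a6d (ENSMUSG00000024679) at chr19:11586604-11604849 on the minus strand.

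Of 13 other MS4A genes matched in the count tables, 4 were tested, 0 passed the test, and all 4 had log2 fold changes below 0 with a median of -0.75. Ms4a14, the most abundant, measured 76.7, 43.5 and 43.2 CPM with thiothixene and 87.1, 40.2 and 135.4 CPM with DMSO, with overlapping groups and a log2 fold change of -0.69 (SE 0.465). Ms4a4b, named for a T cell protein, had 0.855, 0.966 and 1.97 CPM with thiothixene and 3.75, 1.01 and 4.69 CPM with DMSO (a log2 fold change of -1.33, SE 0.706). Ms4a3, a gene of granulocyte and monocyte precursors, had 0.190, 1.66 and 1.92 CPM with thiothixene and 0.893, 2.90 and 2.05 CPM with DMSO (a log2 fold change of -0.61, SE 0.892). Ms4a1, which encodes CD20, Ms4a5, Ms4a10 and Ms4a18 had 0 reads in all 6 libraries. For counting error alone, a count of 0 allows up to 3 reads in each.

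Within 500 kb of the MS4A genes 16 other protein-coding genes were tested, of which 0 passed, 7 lay above 0 and 9 below, with a median log2 fold change of -0.08. These 16 include the 4 other MS4A genes, all below 0, and 12 genes with other names, of which 7 lay above 0 and 5 below. The 6 MS4A genes described are left out of this count, since their choice drew on the contrast. The most abundant neighbours were Slc15a3, Tmem109, Prpf19 and Osbp. Slc15a3, a lysosomal peptide and histidine transporter, had 232, 360 and 337 CPM with thiothixene and 191, 339 and 136 CPM with DMSO, higher with thiothixene in all 3 mice but with overlapping groups (log2 fold change 0.48, SE 0.390). The log2 fold change was -0.12 (SE 0.652) for Tmem109, -0.04 (SE 0.337) for Prpf19, a splicing factor, and 0.23 (SE 0.302) for Osbp, an oxysterol-binding protein.

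**Figure D5:**
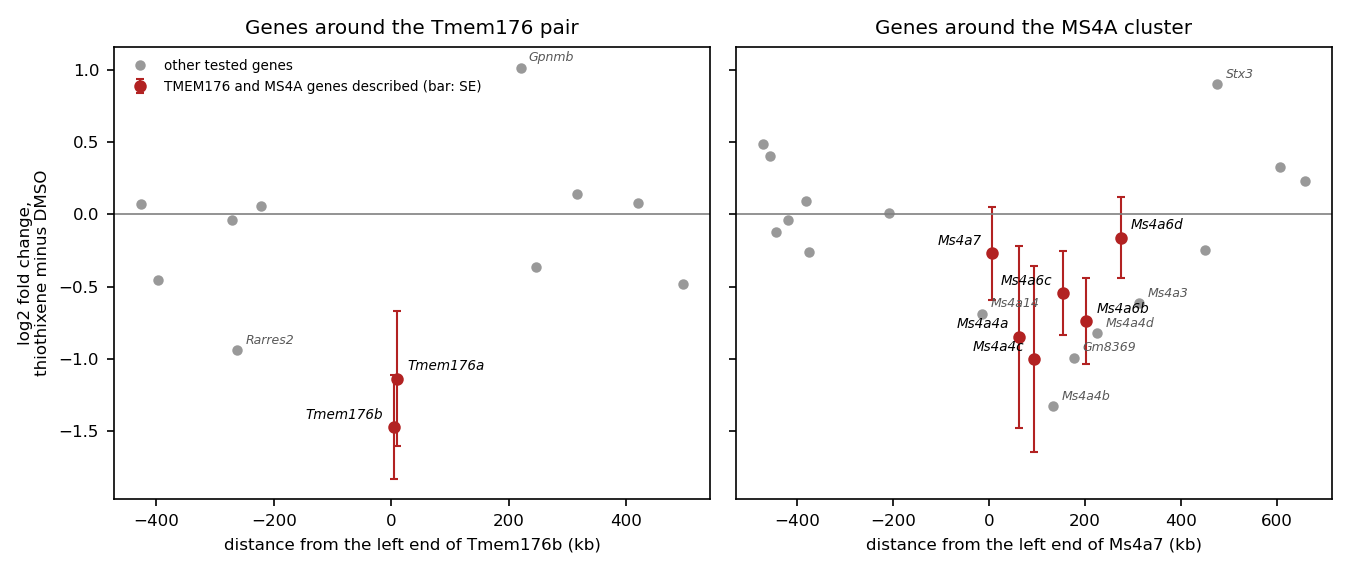
Log2 fold change, thiothixene minus DMSO (vertical axis), of tested genes by distance in kb from the left end of Tmem176b (left panel) and of Ms4a7 (right panel), with the genes described in red with SE and other tested genes in grey. The 4 other tested MS4A genes lie below 0, while Gpnmb, on the side of the Tmem176 pair where distances are positive, lies at 1.01.

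Around the Tmem176 pair 10 other genes were tested, 0 passed, and 5 lay on each side of 0 with a median of 0.009. Gpnmb, which encodes a lysosome-associated glycoprotein of macrophages, measured 10700, 11790 and 10620 CPM with thiothixene, against 5313, 5954 and 5128 CPM with DMSO. It was higher with thiothixene in all 3 mice without overlap, opposite to the Tmem176 pair on the same chromosome, with a log2 fold change of 1.01 (SE 0.250) that did not pass edgeR's adjusted test. Tra2a, a splicing regulator, had a log2 fold change of 0.08 (SE 0.378), Malsu1, a mitochondrial ribosome assembly factor, of -0.36 (SE 0.349), and Zfp467, a zinc finger protein, of -0.45 (SE 0.416). All 3 had overlapping groups.

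The genes of the receptors and signalling partners of these proteins showed no common direction. Of 9 tested, 4 lay above 0 and 5 below, 0 passed, and the median was -0.26. Trem2, the lipid-sensing receptor, measured 400.6, 714.8 and 742.7 CPM with thiothixene and 691.6, 1908 and 199.8 CPM with DMSO (a log2 fold change of -0.59, SE 0.690). Its DMSO libraries held both the highest and the lowest level, with mouse b highest and mouse c lowest. Fcer1g, the shared gamma chain of Fc receptors, and Tyrobp, the adaptor of Trem2, differed by log2 fold changes of -0.26 (SE 0.366) and -0.41 (SE 0.675). Clec7a, which encodes Dectin-1 and is named here after its values were seen, measured 126.2, 98.7 and 83.9 CPM with thiothixene, against 55.0, 53.1 and 56.9 CPM with DMSO. It was higher with thiothixene in all 3 mice without overlap, with a log2 fold change of 0.90 (SE 0.276), and did not pass the adjusted test. Vsig4, likewise named after its values were seen, measured 19.4, 12.0 and 12.5 CPM with thiothixene, against 23.9, 41.1 and 37.2 CPM with DMSO, without overlap (log2 fold change -1.22, SE 0.355), and did not pass either.

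The tetraspanins, an unrelated family that also crosses the membrane 4 times, were split evenly. Of 14 tested, 7 lay above 0 and 7 below, 0 passed, and the median was -0.02. Cd53 had a log2 fold change of 0.17 (SE 0.373), Cd63 of 0.05 (SE 0.593) and Cd9 of 0.60 (SE 0.297). Cd9 measured 304.1, 250.3 and 207.5 CPM with thiothixene, against 133.4, 165.2 and 203.0 CPM with DMSO, without overlap.

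Of 11 tested genes of class II antigen presentation, the process in which TMEM176 proteins have been placed, 2 lay above 0 and 9 below, 0 passed, and the median was -0.29. Ctss, a lysosomal protease, Ifi30, a lysosomal reductase, and Cd74, the invariant chain, had fold changes on the log2 scale of 0.07 (SE 0.292), -0.63 (SE 0.510) and -0.46 (SE 0.409), all with overlapping groups.

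Most genes of resident-type macrophages also had log2 fold changes below 0. Of 17 tested, 15 lay below 0 and 2 above, 0 passed, and the median was -0.69. Among all tested genes, 54.7% lay below 0. Stab1, a scavenger receptor, had a log2 fold change of -0.09 (SE 0.339), C1qb, a complement subunit, of -1.01 (SE 0.513) and Selenop, a selenium carrier, of -0.46 (SE 0.299). The summed level of the list was 7545 to 8148 CPM with thiothixene and 7379 to 13980 CPM with DMSO. Cd163, the haemoglobin scavenger receptor, is named here after its values were seen. It had 20.1, 11.7 and 11.2 CPM with thiothixene and 55.0, 17.2 and 45.3 CPM with DMSO, with overlapping groups.

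Markers of other cell types that a marrow culture can hold were followed as well, and 0 of them passed edgeR's adjusted test. All 8 tested neutrophil markers lay below 0, as did 54.7% of all tested genes, and their median was -0.64. Their list summed to 334.0 to 394.3 CPM with thiothixene. With DMSO it summed to 434.2, 847.7 and 365.0 CPM in mice a, b and c, so the groups overlapped. S100a9, S100a8 and Ngp were the most abundant, with log2 fold changes of -0.66, -0.70 and -0.49. Monocyte markers, of which 1 lay above 0 and 5 below, summed to 173.0 to 277.9 CPM with thiothixene and 228.1 to 349.7 CPM with DMSO. B cell markers summed to 11.3 to 15.4 CPM with thiothixene and 7.51 to 13.7 CPM with DMSO, with Ms4a1 and Pax5 at 0. T cell markers summed to 10.9 to 14.2 CPM with thiothixene and 5.21 to 10.6 CPM with DMSO, nearly all of it Cd4, with Cd3d at 0. Mast cell and basophil markers summed to 1.93 to 3.21 CPM with thiothixene and 1.01 to 2.46 CPM with DMSO, with Fcer1a and Tpsb2 at 0. Dendritic cell markers summed to 0.986 to 1.56 CPM with thiothixene and 0.894 to 2.56 CPM with DMSO, with Cd209a at 0, and stromal markers to 54.2 to 288.5 CPM with thiothixene and 98.3 to 167.7 CPM with DMSO, with Lum at 0. The part of any of these cells in the levels of the 8 genes was not tested.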

How the data were processed

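Total RNA of bone marrow-derived macrophages from 3 mice, with 2 treatments each, was read as paired ends, per the labels' protocols. The deposited tables, 1 per library, hold unnormalized read counts of genes as whole numbers. The submitters' processing notes name STAR 2.7.11b, Trim Galore 0.6.10, FastQC 0.11.8, DESeq2 1.44 and the mm10 build, without roles. Not given in the sources used here are the counter, its use of strand and its gene annotation. The 5 rows that name no gene stayed out of library sizes. Reads assigned to no counted feature were 43.1% to 44.3% of all rows' counts, and where they lay is not given.

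The 8 genes and the gene lists were chosen with earlier results of these data known. Symbols, positions, lengths and GC came from GENCODE M21 (GRCm38), in which 52073 identifiers matched without version and 4618, with 0.4% of gene counts, did not. Promoters came from RefSeq GRCm38.p6. edgeR 4.0.16 (R 4.3.3, quasi-likelihood, robust, TMM, filterByExpr, treatment alone) was fitted on 14856 genes, with adjustment over all of them, and was tested on simulated data. An SE is the absolute log2 fold change over the square root of F. Relative levels used log2 CPM with prior count 2. Identity was computed from pairwise global alignments in Biopython 1.88. Named were the 8 genes, the 3 tested genes of highest mean CPM in each list, up to 4 neighbours a locus and 5 genes most like each pattern, and of cell type lists only macrophage and neutrophil genes with values. Genes added after their values were seen are marked as such. Alternatives were RLE scaling, other filters, DESeq2 1.42.0, limma-voom (limma 3.58.1) with and without library quality weights, offsets for GC content and length (splines, 5 degrees of freedom), the mouse as a block, and leaving out libraries or mice. The mouse letters in the titles pair the libraries. Deviations from group means of the same mouse correlated at -0.131, 0.318 and -0.301 in mice a, b and c. The replicates are separate mice. Limits from counts of 0 cover counting error only. BE692007 and Ms4a6c, like other genes on opposite strands, cannot be separated.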

Additional observations from a re-analysis of the deposited data

How the results depend on the processing

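Each of the 8 log2 fold changes was recomputed under 19 alternatives. Of 152 values 147 moved by less than the SD between replicates and 5 by more, and 3 changed sign: Ms4a7 to 0.033 without the DMSO library of mouse b and to 0.15 without mouse b, and Ms4a6d to 0.034 without mouse c. Beyond that SD moved Ms4a6b, to -1.104 with library quality weights and to -1.132 without the 3 libraries that stood apart, Ms4a6c, to -0.818 without mouse a, Ms4a6d, to -0.407 without mouse a, and Ms4a7 without mouse b. Leaving out each library or mouse gave -1.718 to -1.135 for Tmem176b, -1.656 to -0.749 for Tmem176a, -1.326 to -0.459 for Ms4a4a, -1.71 to -0.421 for Ms4a4c, -0.949 to -0.594 for Ms4a6b, -0.818 to -0.347 for Ms4a6c, -0.407 to 0.034 for Ms4a6d and -0.552 to 0.15 for Ms4a7. With the mouse as a replicate block, Tmem176b was at -1.40, Ms4a6b at -0.76 and Ms4a4a at -0.48, and 0 genes were called, as without it. Over all genes, 1 was called without a filter on low counts and 2 by DESeq2. With library quality weights, 25 of 14856 were called (9 higher, 16 lower, 1 of them among the 8). The choice of the 8 drew on this contrast. Without the 3 libraries that stood apart, 1105 of 15807 were called (636 higher, 469 lower). That last fit keeps a lone DMSO library, assumed to vary like the thiothixene libraries, so no conclusion on the 8 genes is drawn from it. Among the related and neighbouring genes and cell type markers, 3 were called with the weights and 28 without the 3 libraries, against 0 with all 6 libraries and equal weights. Of the 10 genes most like a pattern, 6 kept a coefficient of at least 0.9 with Spearman's rho, and 10 did when any 1 library was left out. With stretches of 50 bases, 3 of the 8 genes shared over 5% of their stretches with another gene, against 1 with 100 bases. With the length of all exons, an alternative chosen after seeing the data, 4 of the 8 kept their rank by level per length. The cause was not tested for any of these. Counts were low for Ms4a4c, at 24 to 200 reads, for Tmem176a, at 107 to 340 reads, and for Ms4a4a in DMSO b, at 47 reads. The part of depth in their spread was not tested.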
